A study of Mus musculus with 30 samples.

Results

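The 9 genes described here, Arg1, Alox12, Acsbg1, Cyp21a1, Onecut2, Angptl2, Dok2, Vill and Gsdmc2, were chosen by their measured levels, which were far higher in mouse colonoids given TGFB1 with BMP2 than in colonoids given vehicle. They are 9 of the 13456 genes that at least 1 of the 7 deposited tables lists, and of the 11665 genes in the table of that comparison. The values that chose them are therefore given as a description, without a test, and tests are given only for libraries that the choice did not use.

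Messenger RNA was sequenced in 30 libraries, 3 for each of 10 groups. Colonoids, organoids of colon epithelium, came from 3 lines, L42, L43 and L46. Each line received vehicle, TNF at 100 ng/mL, TGFB1 at 3 ng/mL together with BMP2 at 10 ng/mL, or all 3 ligands, and the labels give no genotype for the lines. Colonocytes in culture, with IMCfl/fl Smad4+ as their strain label, formed a control group and groups with TNF, with TGFB1 and BMP2, or with all 3 ligands at doses the labels do not state. Colon epithelium came from C57BL/6J mice, either Smad4+ controls or animals named Smad4ΔLrig1, in which Smad4 was targeted, and whose ages the labels do not give. The series design calls the samples of a condition biological replicates. What separated the colonocyte replicates is not stated, and p-values there cover only the spread among those samples, which may be technical.

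TGFB1 and BMP2 are secreted ligands of one family. Each binds a pair of serine/threonine kinase receptors, which phosphorylate receptor Smads (Smad2 and Smad3 for TGFB, Smad1, Smad5 and Smad8 for BMP), and these join Smad4 and act on genes in the nucleus. In the colon, BMP signals are strongest toward the surface of the crypt and TGFB restrains epithelial growth. TNF is an inflammatory cytokine that acts mainly through NF-kB. Because the ligands were given together, the share of TGFB1 and that of BMP2 in any value cannot be told apart.

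The genes are spread over the genome and over functions. Coordinates are those of GRCm38, the assembly that mm10 names, in the GENCODE annotation, and all 9 are protein-coding. Arg1 (chromosome 10, 24915221 to 24927484, minus strand) encodes arginase, which splits arginine into ornithine and urea. Alox12 (chromosome 11, 70241457 to 70255353, minus strand) encodes an arachidonate lipoxygenase. Acsbg1 (chromosome 9, 54604877 to 54661870, minus strand) encodes an acyl-CoA synthetase that activates long-chain fatty acids, and Cyp21a1 (chromosome 17, 34801348 to 34804561, minus strand) the steroid 21-hydroxylase known from the adrenal gland. Onecut2 (plus strand) encodes a transcription factor with a cut domain and a homeodomain. Angptl2 (chromosome 2, 33216069 to 33247717, plus strand) encodes a secreted angiopoietin-like protein, and Dok2 (chromosome 14, 70766036 to 70778495, plus strand) an adaptor that docks to tyrosine kinases and is best known from blood cells. Vill (chromosome 9, 119052778 to 119071525, plus strand) encodes a villin-like protein of the actin-binding villin and gelsolin family. Gsdmc2 (chromosome 15, 63824346 to 63845177, minus strand) encodes a gasdermin, a protein whose family forms membrane pores once cleaved, and its near-identical neighbours Gsdmc3 and Gsdmc4 lie in the same stretch of chromosome 15.

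RefSeq promoter sequences of GRCm38.p6 matched 4 of the 9 genes, Acsbg1, Vill, Alox12 and Angptl2. The 250 bases upstream of the start are printed for 3 of them because receptor-activated Smad3 and Smad4 are known to bind the short element AGAC, or GTCT on the other strand. These letters are in capitals.
Acsbg1: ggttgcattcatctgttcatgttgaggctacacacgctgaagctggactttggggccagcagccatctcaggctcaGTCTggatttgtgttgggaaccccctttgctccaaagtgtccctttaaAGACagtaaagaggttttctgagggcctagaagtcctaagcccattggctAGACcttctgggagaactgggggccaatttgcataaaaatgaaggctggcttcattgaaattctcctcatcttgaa
Vill: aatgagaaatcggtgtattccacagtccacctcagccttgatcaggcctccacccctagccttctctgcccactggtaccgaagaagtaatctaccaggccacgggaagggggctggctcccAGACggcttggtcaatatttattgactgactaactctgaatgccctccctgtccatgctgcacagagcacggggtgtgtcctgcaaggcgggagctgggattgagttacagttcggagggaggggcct
Alox12: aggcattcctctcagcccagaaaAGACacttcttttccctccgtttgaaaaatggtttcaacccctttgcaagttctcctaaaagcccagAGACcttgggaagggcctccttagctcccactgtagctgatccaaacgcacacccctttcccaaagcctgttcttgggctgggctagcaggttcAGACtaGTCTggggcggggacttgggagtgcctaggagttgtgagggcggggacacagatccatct
The windows lie at chr9:54661886-54662135 on the minus strand for Acsbg1, at chr9:119052528-119052777 on the plus strand for Vill and at chr11:70255371-70255620 on the minus strand for Alox12, each read 5′ to 3′ along the gene. AGAC, searched on both strands, occurred 3 times in the Acsbg1 window, 1 time in the Vill window, 4 times in the Alox12 window and 0 times in that of Angptl2. This 4-letter search was added after longer motifs had found no match, and 82.9% of the 32851 windows in the table hold at least 1 match, so a match sets no gene apart. The longer motifs were CAGACA, a Smad3 and Smad4 element that contains AGAC, and GGCGCC, the GC-rich element bound by BMP Smads. Neither was found on either strand in the 4 windows, and they occur in 17.1% and 9.59% of all windows. The GC content was 66.8% in the Angptl2 window, 56.4% for Vill, 54% for Alox12 and 48.4% for Acsbg1, against a median of 52.4% over all windows.

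Levels are CPM, read counts scaled to an effective library size by the authors, and the 7 tables, 1 for each pair of groups, were normalized separately. Depth, as reads assigned to listed genes, was 42.2 to 61.7 M in colonoid libraries, 21.6 to 42.9 M in colonocyte libraries and 23.2 to 28.6 M in colon libraries. In colonoids 1 read was worth 0.0151 to 0.0246 CPM. In colon, Smad4 measured 132, 148 and 152 CPM in Smad4+ controls and 47.8, 59.2 and 46.1 CPM where it was targeted, lower in each knockout library. All 8 epithelial markers that were looked for (Epcam and Cdh1 among them) were listed in colonoids and in colon. In the colonocyte table of TGFB1 with BMP2 against control only 3 of the 8 were listed (Krt8, Krt18 and Krt19, summing to 33.8 to 45.9 CPM in controls), Epcam, Cdh1, Cldn7, Cldn3 and Vil1 were not listed, and 9 of 12 stromal markers (Col1a1, Col3a1 and Vim among them) summed to 6934 to 7431 CPM. In the colonocyte comparisons with TNF, Cdh1 was listed as well. There 4 of the 8 were listed, summing to 35.5 to 48.1 CPM in controls. The defining markers of an epithelial cell were thus low or not listed in the samples labelled colonocytes.

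In colonoids given TGFB1 with BMP2, each of the 9 genes was higher than in vehicle in each line, by 9.08-fold for Vill to 95.0-fold for Arg1 as the geometric mean of the 3 within-line ratios, with a median of 51.1-fold. On the log2(CPM + 1) scale, where the added 1 keeps low levels from dominating, Arg1, Alox12, Acsbg1, Onecut2, Angptl2 and Cyp21a1 took ranks 1 to 6 of 11633 genes, Dok2 rank 8, Gsdmc2 rank 32 and Vill rank 58. In this comparison 28.0% of all genes passed the test as higher and 33.5% had every treated library above every vehicle library. As these libraries chose the genes, nothing is read from their count.

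Among the enzymes, Arg1 stood at 0.878, 1.57 and 0.842 CPM in vehicle-treated L42, L43 and L46 and at 167, 179 and 33.4 CPM after TGFB1 with BMP2. In reads, this is 45, 87 and 49 against 6786, 9335 and 1801, so the vehicle level rests on few reads and the treated level on many. Alox12 stood at 1.09, 2.18 and 2.30 CPM in vehicle and at 84.9, 269 and 76.5 CPM with the ligands, in the same order of lines. L43 was the high library here, at 124-fold its vehicle value against 77.7-fold in L42 and 33.2-fold in L46. Acsbg1 was already measurable in vehicle, at 5.48, 5.92 and 10.1 CPM, and stood at 361, 407 and 220 CPM with the ligands. L46 had the highest vehicle level and the lowest treated level, which made its ratio 21.8 against 65.9 in L42 and 68.8 in L43. Cyp21a1 stood at 0.878, 1.21 and 0.533 CPM in vehicle and at 52.2, 94.3 and 24.3 CPM with the ligands, from 45, 67 and 31 reads to 2126, 4919 and 1311 reads. Of the 75-base windows of Cyp21a1 transcripts, 88.5% occur in no other gene and the rest are shared with the pseudogene Cyp21a2-ps, so part of its reads cannot be assigned with certainty.

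The transcription factor gene Onecut2 stood at 2.36, 1.80 and 1.10 CPM in vehicle and at 126, 122 and 40.7 CPM with the ligands. L42 and L43 were alike, and L46 was lower in both groups. Angptl2, the secreted factor, stood at 1.78, 1.53 and 0.945 CPM in vehicle and at 64.3, 115 and 55.1 CPM with the ligands. The adaptor gene Dok2 stood at 4.72, 3.31 and 4.64 CPM in vehicle and at 161, 99.9 and 70.9 CPM with the ligands, highest in L42. Vill had the highest starting level, 33.3, 30.6 and 37.1 CPM, and stood at 314, 348 and 260 CPM with the ligands. Its treated libraries varied least of the 9, the highest being 1.34 times the lowest, against 5.36 times for Arg1.

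Gsdmc2 stood at 6.71, 5.71 and 5.60 CPM in vehicle and at 71.1, 72.1 and 124 CPM with the ligands. It was the only one of the 9 with L46 as its highest treated library. Its neighbour Gsdmc3 stood at 1.23, 0.90 and 0.945 CPM in vehicle and at 14.0, 10.8 and 23.0 CPM with the ligands, a geometric mean ratio of 14.9 beside 14.4 for Gsdmc2. Gsdmc4 did not share this: it stood at 3.59, 26.2 and 3.09 CPM in vehicle and at 6.73, 10.4 and 13.1 CPM with the ligands, lower in L43 and higher in the other lines. Only 60.7% of the 75-base windows of Gsdmc2 occur in no other gene and 30.5% are shared with Gsdmc3, so the split of reads between the paralogs is uncertain. The other 7 genes, leaving aside Cyp21a1, hold no 75-base window found in another gene.

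**Figure D1:**
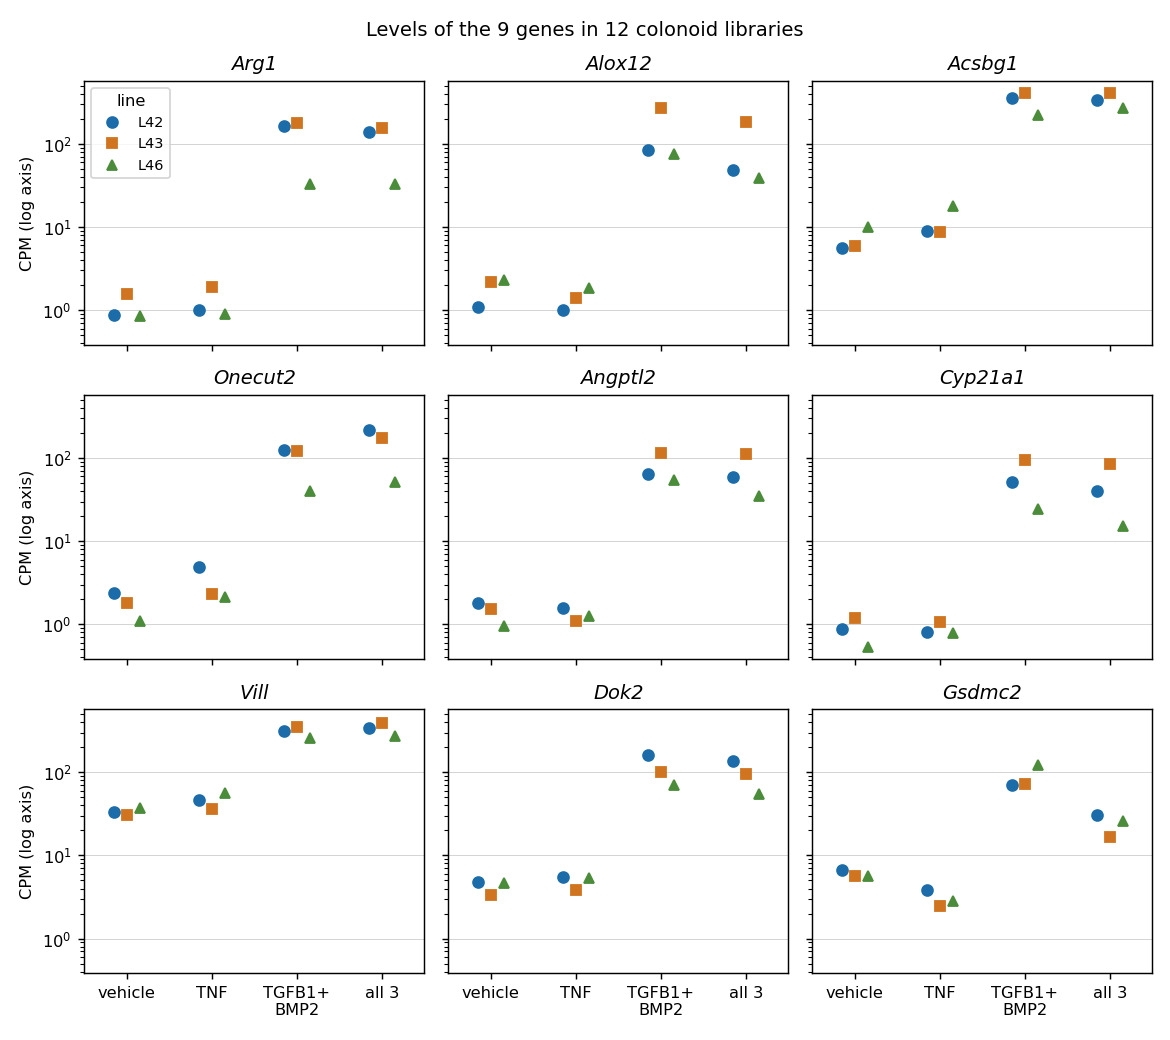
Level of each of the 9 genes in the 12 colonoid libraries, in CPM on a log axis, by group (vehicle, TNF, TGFB1 with BMP2, all 3 ligands), with 1 point per line. Every library with TGFB1 and BMP2 lies above every library without them for each gene, and L46 is mostly the lowest of the treated lines.

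Per kilobase of merged exons, which allows levels to be compared between genes, Vill led in vehicle at a mean of 7.64 CPM per kilobase, ahead of Gsdmc2 at 2.60, Acsbg1 at 1.99 and Dok2 at 1.46. The remaining 5 genes lay between 0.108 (Onecut2) and 0.492 (Arg1). With TGFB1 and BMP2 the order was Acsbg1 at 91.4 CPM per kilobase, Vill at 69.7, Arg1 at 56.7, Gsdmc2 at 38.5, Dok2 at 38.1, Alox12 at 35.1, Cyp21a1 at 26.6, Angptl2 at 12.4 and Onecut2 at 5.93. From Acsbg1 down to Angptl2, each pair of neighbours lay closer than the larger of their SDs (n = 3 lines), such as 91.4 ± 27.1 for Acsbg1, 69.7 ± 10.1 for Vill and 56.7 ± 36.2 for Arg1. Angptl2 at 12.4 ± 5.12 and Onecut2 at 5.93 ± 2.97 differed by more than either SD. Onecut2 was low on this scale because its merged exons are long, at 16234 bases.

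The libraries with TNF, which the choice of genes did not use, allowed the same ligands to be tested on a TNF background. All 9 genes, of which Cyp21a1 passed the filter on low values only through its treated libraries, rose with TGFB1 and BMP2 under TNF (limma, two-sided, Benjamini-Hochberg over 11595 genes), in a comparison in which 26.4% of all genes passed as higher, 27.7% as lower, and 32.2% had every library with all 3 ligands above every library with TNF alone. Arg1 and Cyp21a1 are not listed in the table of TNF against vehicle, which holds the same TNF libraries. Their listing here thus came with the libraries with all 3 ligands, and their calls are no independent support. The 9 genes reached 7.21-fold to 73.5-fold of the TNF level, with a median of 41.8-fold. All 9 were also called higher in each of the 12 alternative settings, with adjusted p-values of 0.0143 or less. The TNF libraries come from the same 3 lines as those that chose the genes, so they are separate cultures and not separate lines. As the samples are bulk RNA, more cells of a type that expresses a gene and more RNA per cell cannot be told apart.

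Arg1 stood at 1.01, 1.91 and 0.905 CPM with TNF in L42, L43 and L46 and at 137, 153 and 32.9 CPM with all 3 ligands. Its log2 change was 5.33 (SE 0.57, limma adjusted p = 0.00169), a call that is no independent support because its listing came with the treated libraries. Alox12 stood at 1.01, 1.40 and 1.83 CPM with TNF and at 48.3, 182 and 38.9 CPM with all 3, a log2 change of 4.90 (SE 0.55, limma adjusted p = 0.00178). In both genes the lowest treated library lay far above the highest TNF library, and the treated lines differed by 4.66 and 4.69 times. Acsbg1 stood at 9.05, 8.75 and 18.0 CPM with TNF and at 333, 404 and 265 CPM with all 3, a log2 change of 4.75 (SE 0.29, limma adjusted p = 0.00134). Cyp21a1 stood at 0.813, 1.07 and 0.784 CPM with TNF and at 39.7, 83.3 and 15.1 CPM with all 3, a log2 change of 4.34 (SE 0.55, limma adjusted p = 0.00224). Its mean with TNF alone, 0.889 CPM, is under the minimum mean of 1 CPM, so Cyp21a1 entered the test only through the libraries with all 3 ligands, and its call is no independent support. Of the 4 enzyme genes Acsbg1 had the smallest SE, and its treated lines lay closest together, the highest at 1.53 times the lowest.

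Onecut2 stood at 4.88, 2.35 and 2.11 CPM with TNF and at 217, 173 and 51.9 CPM with all 3 ligands, a log2 change of 5.00 (SE 0.55, limma adjusted p = 0.00171). Angptl2 stood at 1.56, 1.09 and 1.25 CPM with TNF and at 59.2, 112 and 34.4 CPM with all 3, a log2 change of 4.76 (SE 0.39, limma adjusted p = 0.00134). Both groups were again separated in every line, with the smallest ratio in L46, 24.6 for Onecut2 and 27.5 for Angptl2. Dok2 stood at 5.57, 3.89 and 5.29 CPM with TNF and at 137, 95.2 and 54.0 CPM with all 3, a log2 change of 3.94 (SE 0.33, limma adjusted p = 0.00134). Vill stood at 46.1, 36.6 and 56.2 CPM with TNF and at 343, 383 and 270 CPM with all 3, a log2 change of 2.82 (SE 0.19, limma adjusted p = 0.00134). Vill thus had the smallest ratio, 7.21-fold, and Gsdmc2 the next, 7.83-fold. Gsdmc2 stood at 3.90, 2.49 and 2.79 CPM with TNF and at 30.2, 16.7 and 25.8 CPM with all 3, a log2 change of 2.61 (SE 0.25, limma adjusted p = 0.00143).

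**Figure D2:**
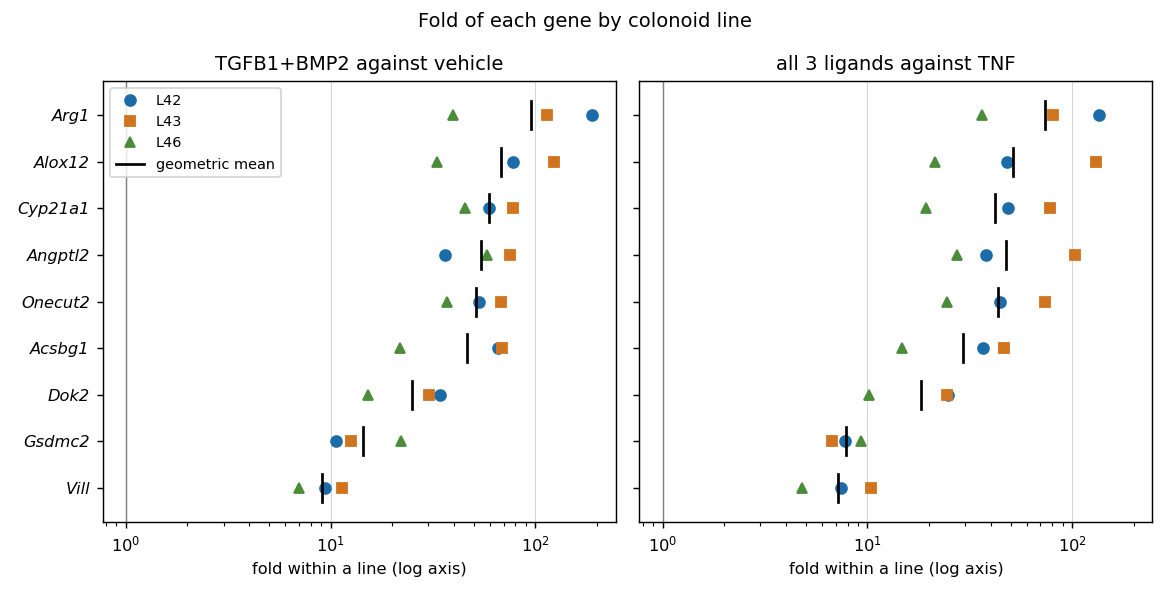
Within-line ratio of CPM with TGFB1 and BMP2 to CPM without them, on a log axis, for each gene, without TNF and under TNF, with 1 point per line and a bar at the geometric mean. Ratios of L46 sit lowest for most genes, and Vill and Gsdmc2 have the lowest mean ratios in both settings.

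The line L46 had the lowest treated level for 8 of the 9 genes, both without TNF and under it. Over all genes, whether raised by the ligands or not, L46 was the lowest treated line for 40.4% and 41.2%. L46 also stood apart beyond the 9 genes. Without its treated library 7617 genes were called instead of 6596, and 7558 instead of 6278 under TNF. L43 had the highest treated level for 6 of 9 in both settings. The share of all genes with L43 highest was not counted, so nothing is read from that number. Gsdmc2 was the exception to the low level in L46, with its lowest treated level in L42 without TNF and in L43 under TNF. There was 1 library per line and group, so differences between lines have no replicate check. Across the 12 colonoid libraries, log2(CPM + 1) of the genes rose and fell together, with Pearson's r of 0.941 to 0.997 for the 28 pairs without Gsdmc2 and 0.816 to 0.887 for the 8 pairs with it. These are descriptions: the 12 libraries share 3 lines and 4 treatments, and the genes were chosen for the treatment difference.

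The genes with the most similar pattern over the same 12 libraries, among 11524 genes, were Rgs12 (r = 0.998) and Vill (0.997) for Acsbg1, and Acsbg1 (0.997) and Rgs12 (0.997) for Vill. For Arg1 they were Mir22hg (0.998) and Prdx5 (0.998), for Alox12 Dact3 (0.997) and Spint1 (0.996), for Onecut2 Spin1 (0.997) and Rab11a (0.995), for Angptl2 Nova2 (0.995) and Mycn (0.994), for Cyp21a1 Slc46a1 (0.996) and Ctsl (0.995), and for Dok2 Ephb6 (0.996) and Tubb2b (0.995). Gsdmc2 was most like its paralog Gsdmc3 (0.991), with which it can share reads, and the pseudogene Gsdmcl-ps (0.987).

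Ratios of TNF to vehicle were small beside those of TGFB1 and BMP2. On a joint scale for the 12 colonoid libraries, the mean ratio over the lines was lowest for Gsdmc2 and reached 1.73 for Onecut2. These ratios use the vehicle libraries that chose the genes and carry no test; in the deposited table of TNF against vehicle, which lists 7 of the 9 (not Arg1 and Cyp21a1), 0.137% of all genes were called, 16 of 11688, or 718 with the line as a block. Acsbg1 (1.48 to 1.79 over the lines), Onecut2 (1.31 to 2.05), Vill (1.19 to 1.52), Dok2 (1.14 to 1.17) and Arg1 (1.08 to 1.21) were above vehicle in all 3 lines. Gsdmc2 (0.436 to 0.574) and Alox12 (0.642 to 0.911) were below vehicle in all 3, and Angptl2 (0.711 to 1.33) and Cyp21a1 (0.885 to 1.48) differed in direction between lines.

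Adding TNF to TGFB1 and BMP2 left most genes near their level without TNF, with a median ratio of 0.861 of all 3 ligands to TGFB1 with BMP2. Gsdmc2 stood furthest from 1, at 0.429 of its level without TNF in L42, 0.235 in L43 and 0.210 in L46. Gsdmc3 and Gsdmc4 had mean ratios of 0.282 and 0.224 beside 0.276 for Gsdmc2, a low ratio for each paralog. Alox12 stood at 0.513 to 0.687, Cyp21a1 at 0.626 to 0.895, Angptl2 at 0.630 to 0.991, Dok2 at 0.767 to 0.966 and Arg1 at 0.830 to 0.994, below 1 in every line. Onecut2 stood at 1.29 to 1.74 and Vill at 1.05 to 1.11, above 1 in every line, and Acsbg1 at 0.932 to 1.21. These ratios share the libraries that chose the genes, so whether TNF altered the response was not tested in colonoids.

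**Figure D3:**
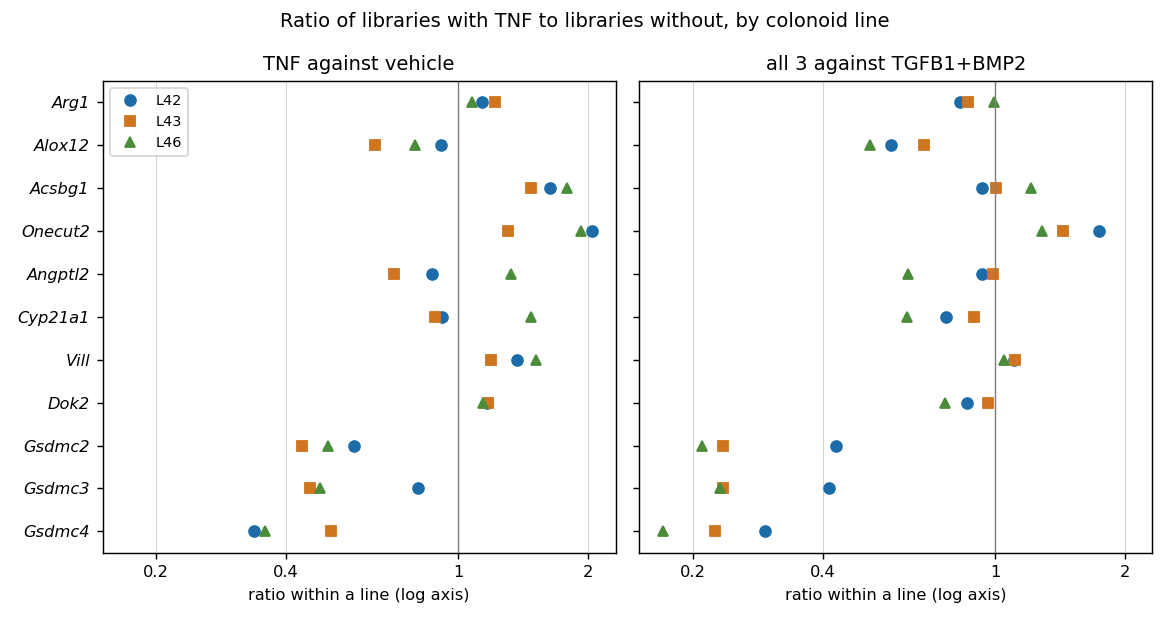
Ratio of CPM with TNF to CPM without TNF within each line, on a log axis, for each gene, in colonoids without TGFB1 and BMP2 and in those with them. Of the 9 genes Gsdmc2 lies lowest in both panels, with its paralogs Gsdmc3 and Gsdmc4 drawn beneath it, and Onecut2 lies above 1 in every line.

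Related genes, from lists that leave out the 9, were read in the same test under TNF, where the median log2 change of all genes was -0.03. Of all genes there, 26.4% passed as higher and 27.7% as lower. TGFB and BMP response genes rose in 10 of 12 tested, with a median of 1.72. Smad7, an inhibitory Smad, went from a mean of 15.7 to 154 CPM (log2 3.19, limma adjusted p = 0.00134), and Pmepa1, which restrains TGFB signalling, from 112 to 880 CPM (2.97, limma adjusted p = 0.00134). The villin and gelsolin family rose in 6 of 7 besides Vill, with a median of 1.18. Capg, an actin-capping protein, went from 203 to 709 CPM (1.82, limma adjusted p = 0.00139), and the actin-severing Gsn from 95.9 to 276 CPM (1.46, limma adjusted p = 0.00516). DOK and IRS adaptors rose in 6 of 10 besides Dok2, with a median of 0.48, among them Dok4 (1.54, limma adjusted p = 0.00358) and Gab1 (1.03, limma adjusted p = 0.00755).

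The other lists are given beside the shares of all genes in this comparison, 26.4% higher and 27.7% lower, and small counts near these shares are no trait of a list. Among other genes of arginine and polyamine metabolism 5 of 15 rose and 6 fell (median -0.25), with Smox, spermine oxidase, going from 79.7 to 303 CPM (1.94, limma adjusted p = 0.00138) and Sat1, the spermidine and spermine acetyltransferase, from 256 to 648 CPM (1.32, limma adjusted p = 0.00217). Srm, spermidine synthase, fell from 47.3 to 17.1 CPM (-1.56, limma adjusted p = 0.0128) and Gatm, which makes the creatine precursor from arginine, from 10.5 to 1.37 CPM (-2.30, limma adjusted p = 0.00158). Other lipoxygenase and eicosanoid genes rose in 3 of 17 and fell in 9 (median -0.38). Ptgs2, the inducible cyclooxygenase, went from 9.86 to 20.9 CPM (0.98, limma adjusted p = 0.0166). That call was lost, with an adjusted p of up to 0.0585, when L43 or L46 with TNF or L42 or L43 with all 3 ligands was left out. Ephx2 rose by 0.90 (limma adjusted p = 0.00660). The phospholipase gene Pla2g10 fell (-2.33, limma adjusted p = 0.00331), as did Pla2g2a, which is annotated as a polymorphic pseudogene (-2.96, limma adjusted p = 0.00188).

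Of 7 other acyl-CoA synthetases 1 rose and 1 fell (median 0.15), Acsl3 from 236 to 823 CPM (1.75, limma adjusted p = 0.00255) and Slc27a2 (-1.84, limma adjusted p = 0.00841). Other steroid synthesis genes rose in 2 of 11 and fell in 4 (median -0.27). Srd5a1, steroid 5-alpha-reductase, went from 39.1 to 230 CPM (2.51, limma adjusted p = 0.00134) and Por, the electron donor of microsomal P450 enzymes, from 230 to 378 CPM (0.72, limma adjusted p = 0.00369). Nr5a2, a nuclear receptor that drives steroid genes in the intestine, fell from 13.2 to 1.69 CPM (-2.39, limma adjusted p = 0.00134), and Hsd3b3 fell by 0.89 (limma adjusted p = 0.0207, or up to 0.0700 when L42 or L43 with TNF or L43 with all 3 ligands was left out). Of 2 other cut factors Cux1 rose from 115 to 300 CPM (1.31, limma adjusted p = 0.00665). Of 2 other angiopoietin-like genes Angptl6 fell (-0.87, limma adjusted p = 0.0171, or up to 0.0577 when L42 or L46 with TNF or L42 or L43 with all 3 ligands was left out). Among 4 other gasdermins Gsdmc3 rose (1.72, limma adjusted p = 0.00469), Dfna5 fell (-0.63, limma adjusted p = 0.0122), and Gsdmc4 did not pass the test (-0.37, limma adjusted p = 0.680). With TNF alone Gsdmc3 had a mean of 0.622 CPM on the joint scale, under the minimum mean of 1 CPM. It entered the test only through the libraries with all 3 ligands, so its call is no independent support.

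Other cells and cell states were read from marker lists in the same colonoid libraries. Epithelial markers, 8 of 8 listed, summed to 9505 to 11547 CPM in vehicle and 25738 to 33229 CPM with TGFB1 and BMP2, and 7 of the 8 rose under TNF. Of 15 absorptive colonocyte markers 3 rose and 3 fell under TNF, where 26.4% of all genes passed as higher and 27.7% as lower, with Krt20, a keratin of differentiated surface cells, going from 98.9 to 716 CPM (2.65, limma adjusted p = 0.0116) and Slc26a3, the chloride and bicarbonate exchanger, from 76.0 to 7.34 CPM (-3.21, limma adjusted p = 0.00698). Their summed level was 3954 to 6199 CPM with TNF and 3548 to 7416 CPM with all 3 ligands, and their median log2 change was -0.57. Without TNF the sum was 4188 to 6067 CPM in vehicle and 5174.5 to 13561.5 CPM with TGFB1 and BMP2. There 4 of the 15 were higher and 2 lower, with a median log2 change of 0.59. Of all 11633 genes in that comparison, 3262 were higher and 3334 lower. Leukocyte markers were near the floor, 4 of 19 listed without TNF, with sums of 11.1 to 14.7 CPM in vehicle and 11.2 to 17.0 CPM with the ligands, and Ptprc was not listed. Stromal markers, 3 of 12 listed, summed to 4.43 to 5.84 and 4.83 to 9.48 CPM. The part of the epithelial marker level in the rise of the 9 genes was not tested.

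In the samples labelled colonocytes 3 of the 9 genes were listed, Acsbg1, Angptl2 and Vill. TGFB1 with BMP2 raised Acsbg1 and Angptl2, 2 of the 3, in a comparison in which 15.9% of 11620 genes passed the test as higher, 14.3% as lower, and 22.3% had every treated library above every control. Acsbg1 stood at 9.58, 8.61 and 12.7 CPM in controls and at 19.2, 19.4 and 22.0 CPM with the ligands, a 1.98-fold difference. Every treated library lay above every control, with a log2 change of 0.92 (SE 0.12, limma adjusted p = 5.6e-05). Angptl2 stood at 31.6, 33.3 and 35.1 CPM in controls and at 46.1, 46.2 and 48.2 CPM with the ligands, a log2 change of 0.48 (SE 0.064, limma adjusted p = 7.11e-05), again without overlap. Vill stood at 4.65, 3.83 and 2.96 CPM in controls and at 5.06, 5.28 and 4.01 CPM with the ligands, and these groups overlapped (0.27, SE 0.14, limma adjusted p = 0.177).

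Under TNF the same 2 genes rose in colonocytes, where 16.4% of 11567 genes passed as higher and 22.9% had no overlap in that direction. Acsbg1 stood at 10.5, 9.04 and 13.0 CPM with TNF and at 19.4, 19.2 and 18.7 CPM with all 3 ligands (log2 0.78, SE 0.11, limma adjusted p = 0.000153). Angptl2 stood at 29.4, 27.5 and 30.5 CPM with TNF and at 43.8, 45.3 and 40.5 CPM with all 3 (0.55, SE 0.067, limma adjusted p = 4.2e-05). Vill stood at 3.98, 4.01 and 2.89 CPM against 4.73, 4.28 and 2.98 CPM, with overlap (0.10, SE 0.15, limma adjusted p = 0.648). The geometric mean ratios in colonocytes, 1.98 and 1.78 for Acsbg1 and 1.41 and 1.48 for Angptl2 without and under TNF, stand beside 46.2 and 29.3 for Acsbg1 and 54.1 and 47.5 for Angptl2 in colonoids. On scales set in separate tables, Angptl2 started at 33.3 ± 1.76 CPM in control colonocytes and at 0.945 to 1.78 CPM in vehicle colonoids, while the starting levels of Acsbg1 overlapped, at 8.61 to 12.7 and 5.48 to 10.1 CPM. Differences between the systems were not tested.

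In the comparison of TGFB1 with BMP2 against control, 9 of 13 TGFB and BMP response genes rose in colonocytes and 1 fell, with a median log2 change of 0.80. Of all genes in that comparison, 15.9% passed as higher and 14.3% as lower. TNF alone changed none of the 3 genes in colonocytes by limma at an adjusted p of 0.05, where 6.28% of 11586 genes were called. At an unadjusted p under 0.05 there was 1, Angptl2, and edgeR and DESeq2 called 0. Angptl2 stood at 32.1, 33.9 and 35.8 CPM in controls and at 30.6, 28.6 and 31.7 CPM with TNF, each TNF library under each control, as in 10.6% of all genes. Its log2 change was -0.16 (SE 0.068, limma adjusted p = 0.245, or 0.0452 with the replicate number as a block, a setting that called 2356 genes instead of 728). Acsbg1 differed by 0.10 (limma adjusted p = 0.794) and Vill by -0.03 (limma adjusted p = 0.952).

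Whether TNF altered the effect of TGFB1 and BMP2 was tested in colonocytes as an interaction over the 12 libraries. It was -0.15 (SE 0.18) for Acsbg1, 0.07 (SE 0.089) for Angptl2 and -0.17 (SE 0.23) for Vill on the log2 scale, each with a limma adjusted p of 1.00. At an unadjusted p under 0.05 limma called 0 of the 3 genes, as did edgeR after adjustment. Over 11501 genes 0.00869% were called, 1 gene, Ccl20 (-1.34, SE 0.19, limma adjusted p = 0.0381), the chemokine in the title of the series, and 30 with the replicate number as a block.

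In colon epithelium 2 of the 9 genes were listed, Gsdmc2 and Vill. Gsdmc2 was higher where Smad4 had been targeted, standing at 394, 207 and 211 CPM in Smad4+ controls and at 616, 753 and 777 CPM in the knockout, or 271 ± 107 against 715 ± 86.7 (SD, n = 3 each). The log2 change was 1.46 (SE 0.22, limma adjusted p = 0.000987), a 2.76-fold difference, in a comparison in which 19.8% of 11607 genes passed as higher, 19.9% as lower, and 25.0% had every knockout library above every control. Gsdmc3 stood at 86.3, 48.6 and 52.0 CPM against 201, 238 and 219 CPM (1.84, SE 0.19, limma adjusted p = 0.000196). Gsdmc4 stood at 614, 367 and 391 CPM against 747, 926 and 1014 CPM (1.00, SE 0.19, limma adjusted p = 0.00304). Gsdmc, 84.2% of whose 51-base windows occur in no other gene, stood at 9.07, 4.62 and 6.07 CPM against 12.2, 12.8 and 10.6 CPM (0.80, SE 0.20, limma adjusted p = 0.0110, or 0.0542 without knockout replicate 2). For all 4 paralogs the groups did not overlap, and control replicate 1 was the highest control. With 51-base reads, 49.3% of the windows of Gsdmc2 occur in no other gene, so how the difference divides among the paralogs is uncertain.

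Gsdmc2 was thus higher in colonoids given the ligands and higher in colon with Smad4 targeted. In the same colon libraries 19.8% of all genes passed as higher and 19.9% as lower. Of 13 TGFB and BMP response genes 7 fell and 4 rose, with Smad7 at -0.84 (limma adjusted p = 0.000766) and Pmepa1 at 1.32 (limma adjusted p = 0.000196). Absorptive colonocyte markers moved with the genotype: 17 of 18 were listed, 10 fell and 1 rose, and their sum was 19903 to 20887 CPM in controls and 12303 to 17944 CPM in the knockout. Leukocyte markers, 12 of 19 listed, summed to 66.8 to 97.0 and 84.1 to 100 CPM, and the part of either in the Gsdmc2 difference was not tested. Vill stood at 2.15, 2.66 and 2.07 CPM in controls and at 1.93, 1.53 and 2.53 CPM in the knockout. These overlapped and did not pass the test (-0.15, SE 0.17, limma adjusted p = 0.526).

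**Figure D4:**
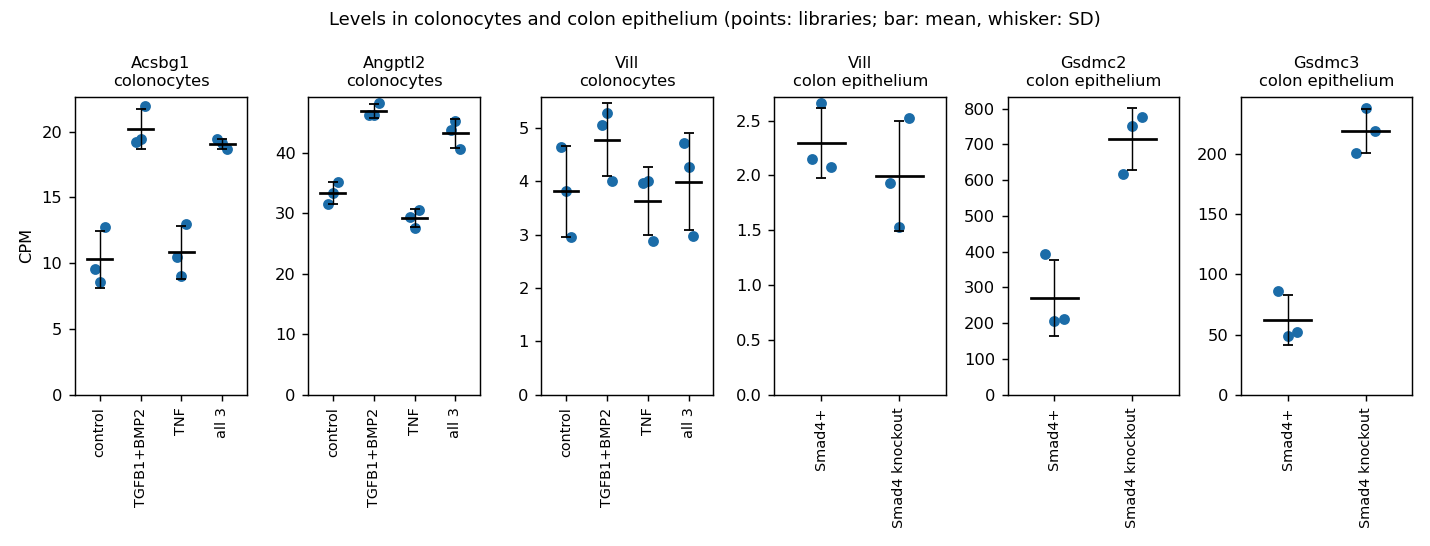
CPM of Acsbg1, Angptl2 and Vill in the colonocyte groups and of Vill, Gsdmc2 and Gsdmc3 in colon epithelium, with 1 point per library, the mean as a bar and the SD as a whisker. Acsbg1 and Angptl2 are higher in both groups with TGFB1 and BMP2, Gsdmc2 and Gsdmc3 are higher in the knockout, and the Vill groups overlap.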

How the data were processed

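Gene expression was measured by mRNA sequencing, per the labels with an RNeasy kit and TruSeq Stranded mRNA libraries, as 51-base single-end reads in colon (32 to 37 M stated) and 75-base paired-end reads in colonocytes (26 to 50 M) and colonoids (50 to 72 M). The submitters' processing notes name edgeR 3.4.2, HTSeq 0.5.4p5, SAMtools 1.3.1 and TopHat2 2.1.0, besides CASAVA and bcl2fastq 2.16, with mm10 as the build. Whether counting used strand is not given in the sources used. The authors deposited 7 tables, each normalized separately, whose 42 library columns hold a signal in CPM per effective library size. Column sums ran from 892492 to 1.14991e+06, so this is not CPM of the plain total. Per the file headers, further deposited columns hold a log2 fold change with a mean log2 CPM, and a p-value with its false discovery rate, none of which is used here. Low values were whole multiples of 1 read, and 100% of values came out whole within 0.05, with the same reads in the 12 libraries that stand in 2 tables.

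The main test was limma (eBayes with trend, two-sided) on log2(CPM + 1), fitted to each table's 6 libraries and to genes whose mean CPM reached 1, with Benjamini-Hochberg adjustment over all genes and a threshold of 0.05. Fold changes on this scale understate the change of low genes. Ratios across all 12 colonoid libraries and the colonocyte interaction used recovered reads with TMM scaling. Alternatives were a pseudocount of 0.25, no filter, edgeR and DESeq2 on recovered reads, scaling by total reads, a replicate block and leaving out each library. The count tests on recovered reads called 6030 (edgeR) and 6737 (DESeq2) genes under TNF in colonoids against 6278 in limma. Scripts were tested on simulated data. Versions were DESeq2 1.42.0, edgeR 4.0.16 and limma 3.58.1 in R 4.3.3, and pandas 2.3.3, numpy 2.4.6 and matplotlib 3.10.9 in Python 3.11.15.

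The 9 genes, the gene lists and the tests were chosen with earlier results of these data known. Named genes are the 9, up to 2 genes per direction from each list by absolute log2 change among those past the threshold in colonoids under TNF, the 2 genes most like each member, and the paralogs Gsdmc, Gsdmc3 and Gsdmc4. Ccl20 and the Smad7 and Pmepa1 values in colon were added after their values were seen.

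Colonoid lines pair the samples by label, and deviations from the group means correlated within each line (for TGFB1 with BMP2 under TNF, 0.593, 0.445 and 0.283). Whether colonocyte replicate numbers mark pairs is not stated. Their correlations were 0.170, 0.163 and 0.411 for all 3 ligands against TNF and 0.270, 0.274 and 0.522 for TNF against control. For TGFB1 with BMP2 against control they were 0.246, 0.0482 and 0.251. The main fits used neither line nor replicate number, so their p-values are unpaired. A block for line or replicate number was fitted only as an alternative.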

Additional observations from a re-analysis of the deposited data

How the results depend on the processing

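The rise of the 9 genes under TNF in colonoids kept its direction and its call in all 12 alternatives, and so did those of Acsbg1 and Angptl2 in colonocytes and of Gsdmc2 in colon. For Cyp21a1, which passed the filter only through the libraries with all 3 ligands, this is no independent support. Nor is it for Arg1, which was listed only in comparisons that hold libraries with TGFB1 and BMP2. Scaling by total reads moved the median log2 change of all genes from -0.02 to -0.28 for TGFB1 with BMP2 in colonoids and from -0.03 to -0.27 under TNF, where it left Vill at 2.57 and Gsdmc2 at 2.39. The split of higher and lower calls moved with it, from 3262 and 3334 to 1997 and 5026 in colonoids, from 3061 and 3217 to 1912 and 4890 under TNF, from 1848 and 1665 to 1228 and 2896 in colonocytes, from 1892 and 1802 to 1266 and 3065 in colonocytes under TNF, and from 534 and 194 to 442 and 296 for TNF in colonocytes.

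Counts of called genes over the leave-one-out fits, in which a group left with 2 libraries shares the spread of both, ran from 4177 (without the L42 library with all 3 ligands) to 7558 around 6278 under TNF in colonoids, from 1 to 8 around 16 for TNF in colonoids, from 400 to 1217 around 728 for TNF in colonocytes, from 2708 to 4915 around 4611 for the Smad4 knockout, and from 0 to 10 around 1 for the interaction. DESeq2 called 116 genes for TNF in colonoids. For the interaction a pseudocount of 0.25 and edgeR called 0, and DESeq2 was not run. The cause of these shifts was not tested.

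With the replicate block, the counts were 718 for TNF in colonoids, 2356 for TNF in colonocytes and 30 for the interaction, and Angptl2 with TNF in colonocytes reached an adjusted p of 0.0452; no other call of the 9 genes changed. Colon replicates share only a number, with correlations of 0.0658, 0.123 and -0.00611, and the block gave 4946 calls there. For the colonocyte libraries with TGFB1 and BMP2 against control the correlations were 0.246, 0.0482 and 0.251, and the block gave 4112 calls. Replicate 3 was the shallowest library of each colonocyte group, at 21.6 M in controls and 24.9 M with TGFB1 and BMP2. It had 25.2 M with TNF and 23.7 M with all 3 ligands. Whether the number marks pairs in colonocytes is not stated. Direction reversed in values that did not pass the test: Gsdmc4 under TNF in colonoids, from -0.84 to 0.54 over the leave-one-out fits (0.54 without the L43 library with TNF), Vill under TNF in colonocytes, from -0.0164 to 0.258, at -0.0164 without TNF replicate 3 and -0.0032 without replicate 1 with all 3 ligands, Acsbg1 with TNF in colonocytes at -0.0109 without control replicate 2 and -0.0288 without TNF replicate 3, and Vill with TNF in colonocytes, from -0.159 to 0.0968, at 0.0968 without control replicate 1 and 0.0949 without TNF replicate 3. Direction also changed in colonoid values that carry no test. Over all alternatives, the log2 change of Gsdmc4 with TGFB1 and BMP2 against vehicle ran from -0.127 to 1.31 around 0.423. That of Angptl2 with TNF against vehicle ran from -0.218 to 0.0535 around -0.0627. The depth limits Arg1 and Cyp21a1 in vehicle most, at 31 to 87 reads per library, and intervals would cover counting error only.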
